A study of Mus musculus with 20 samples.

Results

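The genes described here handle AICAR and adenosine: they carry nucleosides into the cell, phosphorylate them, deaminate AMP, and break purines down or salvage them. The 10 members (Slc29a1, Slc29a2, Adk, Ampd2, Ampd3, Nt5c2, Ada, Pnp, Hprt and Adsl) were chosen by name from what their products are known to do. Earlier results of these data were known at that choice, so counts of members set beside shares of all genes only describe the members. Each member was read from its probe sets annotated with a single gene symbol. They hold 15 of 28898 such probe sets, and 10 of 17097 genes named on the array. The probe set with the highest mean stood for each gene. All 10 members were among the 12944 genes tested, each with a highest group mean above the 40th percentile of all values, 4.81 on the log2 scale.

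RNA came from mouse embryonic fibroblasts immortalized with SV40 in which both genes for the catalytic AMPK subunits (Ampkα1 and Ampkα2) were knocked out. AMPK is the kinase that senses AMP and is the usual target of AICAR. The groups were a control at 0 h without AICAR (3 arrays) and cells given 1 mM AICAR and collected after 1, 2, 4, 12 or 24 h (3 arrays for each time) or after 8 h (2 arrays), all on the Affymetrix MG-430 PM array strip. All groups carried the double knockout, the controls too, so no value below compares knockout with wild-type cells. Hours in AICAR and hours in culture passed together and cannot be told apart. The labels do not say whether replicates were separate cultures, and p-values therefore reflect only the scatter among these samples, which may be technical.

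AICAR is a nucleoside that cells take up through equilibrative nucleoside transporters and that adenosine kinase turns into ZMP, a mimic of AMP. ZMP is also a natural intermediate on the way to IMP, the purine from which AMP and GMP are made. AMP deaminases turn AMP back into IMP, nucleotidases release nucleosides from nucleotides, and adenosine deaminase, purine nucleoside phosphorylase and hypoxanthine phosphoribosyltransferase form the route from adenosine through inosine and hypoxanthine back to IMP.

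The median log2 signal of an array was 5.16 to 5.32. The 23 probe sets for non-specific signal had a 95th percentile of 5.08, taken here as background. Of 12 fibroblast markers, 9 averaged above it, and Col1a2, Thy1 and Lum did not. Markers of other cells were above it for 3 of 8 (macrophage), 4 of 7 (epithelial), 1 of 6 (endothelial), 6 of 7 (muscle) and 1 of 4 on the array (adipocyte). Among macrophage markers Csf1r, Cd14 and Fcgr1 were above it, and the defining genes Ptprc, Adgre1 and Itgam were below. Among epithelial markers Krt19 (9.82 at 0 h) and Epcam (6.37 at 0 h) were above it, and Cdh1 was below. The summed log2 signal of the 8 macrophage markers was 39.52 to 40.55 at 24 h and 38.95 to 39.28 at 0 h. Among these 8, Cd68 moved most, with a mean of 4.77 at 0 h and 5.85 at 24 h, while Csf1r had 5.77 and 5.56. Of 5 macrophage markers tested, 1 was higher at 24 h and 0 lower, where 25.8% of all genes were higher and 14.6% lower. The sum of the 7 epithelial markers was 39.85 to 39.96 at 24 h and 39.50 to 40.08 at 0 h. That of the 12 fibroblast markers was 98.63 to 99.52 at 0 h, 97.02 to 97.57 at 4 h, 96.70 to 97.03 at 8 h and 97.91 to 99.60 at 24 h. Of 10 fibroblast markers tested, 3 were lower and 1 higher at 24 h, beside the same shares of all genes. That of the 7 muscle markers was 37.53 to 38.46 at 24 h and 38.44 to 39.10 at 0 h. Endothelial and adipocyte sums at 24 h overlapped those at 0 h. The probe set for Prkaa1 (the α1 gene) gave 7.92 to 8.36 over the 20 arrays, and of 3 for Prkaa2 (the α2 gene) the brightest gave 5.42 to 6.98. The next gave 4.61 to 5.70, above background on 9 of 20 arrays, and the dimmest 3.61 to 3.99, above it on 0 of 20. The sources used here do not say which part of each gene was deleted, so these signals do not test the knockout. The 3′ minus 5′ log2 signal of the actin control was 0.503 to 0.557 at 24 h and 0.383 to 0.458 at 0 h, and reached 0.689 at 4 h and 0.646 at 8 h. That of the Gapdh control was 0.125 to 0.154 at 24 h, within its 0.077 to 0.228 at 0 h. The part of cell makeup and RNA quality in the results below was not tested, and in such bulk RNA fewer cells of a type and less RNA per cell cannot be told apart.

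The AMP deaminase genes Ampd2 and Ampd3 gave the largest differences among the members, in opposite directions. In AICAR, the Ampd3 signal was 2.31-fold the control at 12 h, and the Ampd2 signal at 24 h was 57.2% of the control. Adsl, the adenylosuccinate lyase gene, was at 60.1% of the control at 24 h after little difference up to 12 h. Pnp rose and Adk fell by small amounts late in the course. No member passed the test at 1 or 2 h.

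Promoter windows are shown for Ampd2, Ampd3 and Adsl because these members moved most and in different ways. Each window is 300 bases from RefSeq (build GRCm38.p6) around an annotated start, most of them before it, printed along the gene's strand. Capitals mark GC boxes (GGGCGG, or CCGCCC where it lies on the other strand) and the E-box CACGTG, which reads the same on both strands. Neighbouring GC boxes may share bases, and an E-box and a GC box that meet could share 1 base. Ampd2 (chr3:108085353-108085652, minus strand) holds 2 GC boxes, and Adsl (chr15:80948240-80948539, plus strand) also holds 2. Of the 3 Ampd3 windows, the 2 shown are chr7:110768372-110768671 and chr7:110772354-110772653 (plus strand). None of the 3 holds a GC box, and the second one shown holds an E-box.
Ampd2: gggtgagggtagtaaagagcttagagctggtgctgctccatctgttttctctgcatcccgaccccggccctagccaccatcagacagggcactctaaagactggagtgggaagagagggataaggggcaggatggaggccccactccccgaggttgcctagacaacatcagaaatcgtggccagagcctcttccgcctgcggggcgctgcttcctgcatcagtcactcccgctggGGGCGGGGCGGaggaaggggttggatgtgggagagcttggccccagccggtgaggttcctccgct
Adsl: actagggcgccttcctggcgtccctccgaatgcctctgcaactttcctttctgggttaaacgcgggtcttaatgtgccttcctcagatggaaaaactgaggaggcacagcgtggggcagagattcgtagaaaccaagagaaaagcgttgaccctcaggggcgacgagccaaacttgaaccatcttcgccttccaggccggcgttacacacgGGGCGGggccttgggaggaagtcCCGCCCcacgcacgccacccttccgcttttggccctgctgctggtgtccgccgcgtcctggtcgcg
Ampd3, first start: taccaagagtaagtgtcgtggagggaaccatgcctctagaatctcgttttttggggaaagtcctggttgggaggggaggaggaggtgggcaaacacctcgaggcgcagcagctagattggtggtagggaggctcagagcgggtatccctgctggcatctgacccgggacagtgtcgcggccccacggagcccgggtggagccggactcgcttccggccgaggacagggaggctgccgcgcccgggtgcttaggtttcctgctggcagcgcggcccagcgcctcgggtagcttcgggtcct
Ampd3, second start: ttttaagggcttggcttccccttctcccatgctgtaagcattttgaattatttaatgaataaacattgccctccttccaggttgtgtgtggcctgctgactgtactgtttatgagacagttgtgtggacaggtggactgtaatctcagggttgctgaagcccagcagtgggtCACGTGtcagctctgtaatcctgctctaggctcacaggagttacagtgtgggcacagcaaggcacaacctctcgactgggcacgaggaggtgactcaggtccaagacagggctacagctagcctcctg
All 10 members matched the RefSeq table. A GC box was in at least 1 window of 9 of them, all but Ampd3, and of 38.2% of all 27025 genes, and an E-box in that of 3 members and of 8.09% of all genes. Members had 1 to 8 windows, and over all 32851 windows 35.7% held a GC box and 7.15% an E-box. The 3 members with an E-box, Slc29a1, Nt5c2 and Ampd3, had 8, 7 and 3 windows, and in each 1 window held it. A gene with more windows has more places for a match, so the shares of genes are not compared like for like. A match describes letters and is no evidence of binding, and which start each probe set reports is not known.

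At 12 h in AICAR, 5 of the 10 members passed the test against 0 h (limma, two-sided, adjusted p under 0.05), against 23.7% of all genes tested. Ampd3 and Pnp rose, as did 14.8% of all genes. Ampd2, Adk and Nt5c2 fell, as did 8.88% of all genes. At 24 h, 7 of 10 members passed, against 40.4% of all genes. The 2 higher were again Ampd3 and Pnp (25.8% of all genes were higher), and the 5 lower were Ampd2, Adsl, Ada, Slc29a2 and Adk (14.6% of all genes were lower). The median difference from 0 h over the 10 members was -0.17 at 12 h and -0.23 at 24 h on the log2 scale, beside 0.00 and 0.01 over all genes tested. At 4 h, Slc29a2 alone passed, lower, when 12.1% of all genes passed and 6.9% were lower, and at 8 h Ampd3 alone passed, higher, when 10.3% passed and 7.49% were higher. That 8 h share, 1336 genes, came to 250 or 697 genes when replicate 1 or replicate 2 at 8 h was left out, and to 781 when control replicate 3 was. The counts were 0 of 10 at 1 h and at 2 h, where 0.479% and 1.47% of all genes passed by limma. At an unadjusted p under 0.05, 1 member (Slc29a2) was past at each of these times, and with array weights 1 member passed the adjusted test at 2 h. The test of any difference over the 7 times was passed by 7 of 10 members, against 48.4% of all genes. Slc29a1, Nt5c2 and Hprt did not pass it.

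**Figure D1:**
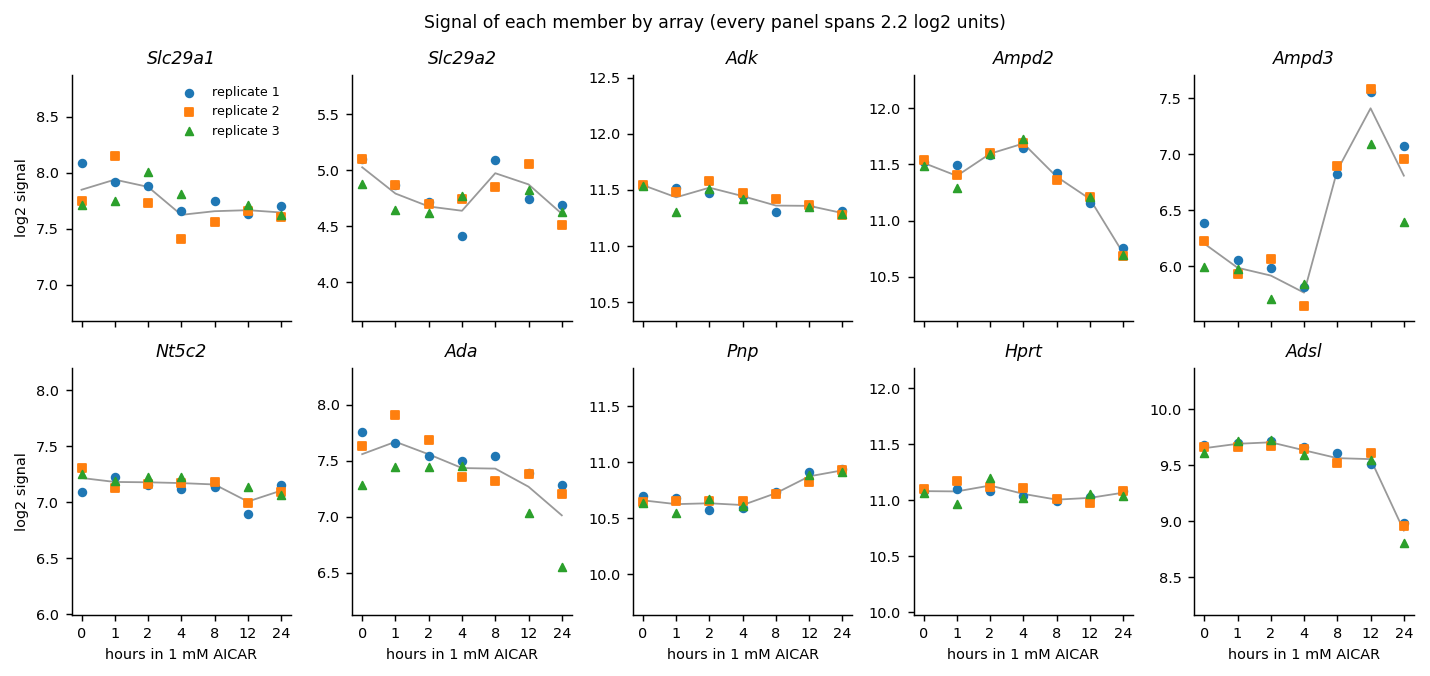
Log2 signal (vertical axis) of the probe set that stands for each of the 10 members, by hours in 1 mM AICAR (horizontal axis, equally spaced times). Each point is 1 array, coloured by replicate number, the grey line joins group means, and all panels span the same number of log2 units. Ampd3 is lowest at 4 h and highest at 12 h, Ampd2 declines from 4 h to 24 h, Adsl drops at 24 h, and Hprt stays between 10.96 and 11.19.

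The transporters come first along the route of AICAR. Slc29a1 encodes ENT1, the equilibrative transporter that many cells use for adenosine. The log2 signal on each array was 8.09, 7.74 and 7.71 at 0 h, 7.92, 8.15 and 7.75 at 1 h, 7.88, 7.73 and 8.00 at 2 h, 7.66, 7.41 and 7.81 at 4 h, 7.75 and 7.56 at 8 h, 7.63, 7.66 and 7.71 at 12 h, and 7.70, 7.60 and 7.63 at 24 h. The 24 h arrays lay just under the lowest control array, and the control arrays themselves spread over more than the distance between the groups. At 24 h the difference from 0 h was -0.20 ± 0.12 (SE), with a 95% interval of -0.45 to 0.05 and an adjusted p of 0.198 by limma. Without control replicate 1, the highest of the controls, it was -0.08 (adjusted p = 0.664). No time passed the test for this gene.

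Slc29a2 encodes ENT2, a related transporter that also carries nucleobases. All its group means, 4.61 to 5.03, were below background, and 3 of 20 arrays were above 5.08. The log2 signal was 5.10, 5.10 and 4.88 at 0 h, 4.87, 4.87 and 4.65 at 1 h, 4.72, 4.70 and 4.62 at 2 h, 4.41, 4.74 and 4.77 at 4 h, 5.09 and 4.86 at 8 h, 4.74, 5.06 and 4.82 at 12 h, and 4.70, 4.52 and 4.63 at 24 h. Arrays at 1, 2, 4 and 24 h lay below every control array, while those at 8 and 12 h overlapped the controls. The gene passed the limma test at 24 h (-0.41 ± 0.11 SE, adjusted p = 0.00449) and at 4 h (-0.39 ± 0.11 SE, adjusted p = 0.0247). The 4 h call was lost without control replicate 1 (-0.35, adjusted p = 0.105), control replicate 2 (-0.35, adjusted p = 0.103) or AICAR 4 h replicate 1 (-0.27, adjusted p = 0.121). Differences at this level may be understated, and how far the signal reports RNA of this gene is uncertain.

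Adk encodes adenosine kinase, the enzyme that phosphorylates both adenosine and AICAR. The log2 signal of its brightest probe set was 11.55, 11.55 and 11.54 at 0 h, 11.52, 11.48 and 11.31 at 1 h, 11.47, 11.58 and 11.51 at 2 h, 11.45, 11.47 and 11.42 at 4 h, 11.30 and 11.42 at 8 h, 11.35, 11.37 and 11.35 at 12 h, and 11.31, 11.28 and 11.29 at 24 h. All arrays at 1 h and from 4 h on were below the 3 control arrays, and the 24 h arrays were below those at 12 h. The fall passed the limma test at 24 h, by -0.25 ± 0.06 (SE, adjusted p = 0.00322), which left 84.1% of the control signal. The smaller difference at 12 h, -0.19 ± 0.06 (SE, adjusted p = 0.0375), missed the threshold when any of the 6 arrays involved was left out, with adjusted p between 0.0752 and 0.0955. The arrays at 24 h differed from those at 12 h by -0.06 (adjusted p = 0.583).

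The name of the brightest Adk probe set carries the array's mark for probes that may also bind other transcripts (x). Adk had 3 further probe sets, whose names do not carry it. The second brightest gave -0.23 at 12 h (adjusted p = 0.0299 by limma over 20460 probe sets, of which 21% passed at 12 h and 37.5% at 24 h) and -0.29 at 24 h (adjusted p = 0.00364). The next gave -0.13 at 12 h and -0.15 at 24 h and passed at neither time (adjusted p = 0.354 and 0.205). The dimmest was below background on all 20 arrays and below the filter, and was not tested.

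AMP deaminases remove the amino group of AMP and so lower AMP and yield IMP. Ampd2 is the form abundant in liver and many non-muscle cells. On the log2 scale its arrays read 11.52, 11.54 and 11.49 at 0 h, 11.50, 11.41 and 11.29 at 1 h, 11.59, 11.60 and 11.60 at 2 h, 11.64, 11.69 and 11.73 at 4 h, 11.42 and 11.36 at 8 h, 11.15, 11.21 and 11.21 at 12 h, and 10.76, 10.68 and 10.69 at 24 h. The arrays at 4 h were the highest of the course, above all controls, and those at 8, 12 and 24 h were all below the controls, each later group below the one before. The 4 h difference of 0.17 ± 0.06 (SE) had an adjusted p of 0.0704 by limma. It passed in 6 of 14 other settings, and in 0 of 6 fits with 1 array left out. At 12 h the difference was -0.32 ± 0.06 (SE, adjusted p = 0.000721), and at 24 h it was -0.81 ± 0.06 (SE, adjusted p = 1.04e-08, 95% interval -0.93 to -0.68).

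Differences between AICAR times were tested directly for 12 h against 4 h and for 24 h against 12 h. Between 12 h and 4 h, 3 of 10 members passed (27.6% of all genes did), 2 of them higher (18.3%) and 1 lower (9.22%), and between 24 h and 12 h also 3 of 10 passed (19.9% of all genes did), all lower (7.3%). Ampd2 was lower at 12 h than at 4 h by -0.50 (adjusted p = 1.03e-05 by limma) and lower at 24 h than at 12 h by -0.48 (adjusted p = 2.06e-05). The other Ampd2 probe set was 8.13, 8.14 and 7.99 at 0 h, 8.22 on all 3 arrays at 4 h, and 7.23, 7.22 and 7.16 at 24 h. Its difference from 0 h was 0.13 at 4 h (adjusted p = 0.360 by limma), -0.50 at 12 h and -0.88 at 24 h (adjusted p = 1.9e-07 at 24 h). The 2 probe sets thus showed the same order of times from 4 h on. The name of the brighter one carries the array's mark for probes that may also bind other transcripts (x), which the second does not.

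Ampd3 is the AMP deaminase form first described in red blood cells and is also made in other tissues. Its arrays read 6.38, 6.23 and 5.996 at 0 h, 6.06, 5.93 and 5.97 at 1 h, 5.98, 6.06 and 5.70 at 2 h, 5.81, 5.64 and 5.84 at 4 h, 6.82 and 6.89 at 8 h, 7.56, 7.58 and 7.09 at 12 h, and 7.07, 6.96 and 6.39 at 24 h. All arrays at 4 h were below the controls, and all at 8, 12 and 24 h were above them. The lowest 24 h array, replicate 3, was only just above the highest control array.

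Against 0 h, Ampd3 rose by 0.65 ± 0.18 (SE) at 8 h (adjusted p = 0.0232 by limma), by 1.21 ± 0.16 at 12 h (adjusted p = 3.09e-05) and by 0.61 ± 0.16 at 24 h (adjusted p = 0.00429). The 8 h call rests on 2 arrays and was lost without either one (adjusted p = 0.140 without replicate 1 and 0.130 without replicate 2), and also without control replicate 2 (0.0511) or 3 (0.0960). At 4 h the difference was -0.44 ± 0.16 (SE, adjusted p = 0.0811 by limma). It passed in 5 of 14 other settings, and in 0 of 6 fits with 1 array left out. Ampd3 was 1.65 higher at 12 h than at 4 h (adjusted p = 1.21e-06), and between 24 h and 12 h the difference was -0.60 (adjusted p = 0.0109). That later step was lost without AICAR 12 h replicate 2 (-0.52, adjusted p = 0.0550) or AICAR 24 h replicate 3 (-0.39, adjusted p = 0.0598). In order of signal, 12 h came first, then 8 and 24 h, which overlapped, and then 0, 1, 2 and 4 h, each of which overlapped the next.

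**Figure D2:**
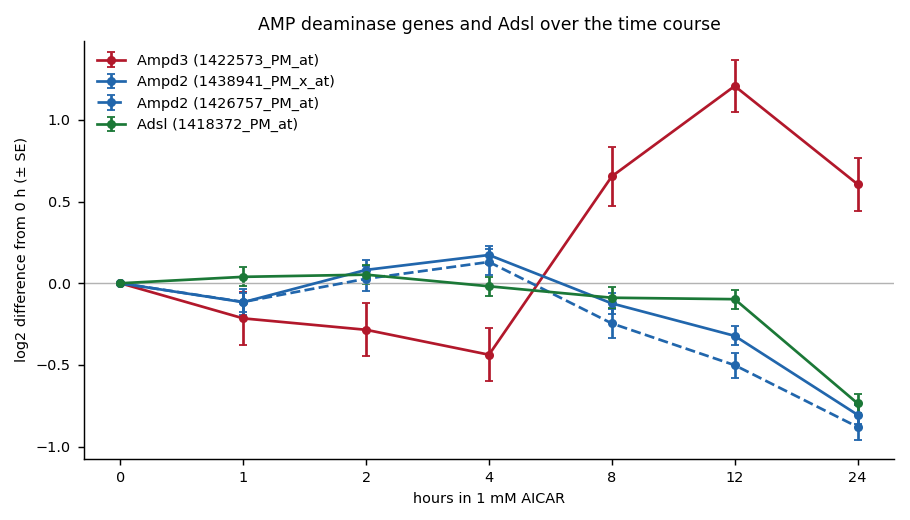
Difference from 0 h on the log2 scale (vertical axis) by hours in 1 mM AICAR (horizontal axis, equally spaced times) for the Ampd3 probe set, both Ampd2 probe sets and the Adsl probe set. Points are differences of group means and bars are ± 1 SE of the fit. Ampd3 reaches 1.21 at 12 h while both Ampd2 probe sets are below 0 from 8 h on, and Adsl stays near 0 to 12 h and stands at -0.74 at 24 h.

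Nt5c2 encodes a cytosolic nucleotidase that prefers IMP and GMP. The log2 signal of its brighter probe set was 7.09, 7.30 and 7.26 at 0 h, 7.23, 7.13 and 7.19 at 1 h, 7.15, 7.16 and 7.22 at 2 h, 7.12, 7.17 and 7.23 at 4 h, 7.14 and 7.18 at 8 h, 6.89, 6.99 and 7.13 at 12 h, and 7.16, 7.10 and 7.06 at 24 h. Every group overlapped the controls. At 12 h the difference of -0.21 ± 0.07 (SE) passed narrowly (adjusted p = 0.0379 by limma). Without AICAR 12 h replicate 1 it was -0.15 (adjusted p = 0.198), and it was also lost without AICAR 12 h replicate 2 (0.0942), control replicate 2 (0.166) or control replicate 3 (0.118). The difference at 24 h was -0.11 ± 0.07 (SE, adjusted p = 0.236). The other Nt5c2 probe set was above background on 13 of 20 arrays and passed at no time.

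Ada encodes adenosine deaminase, which turns adenosine into inosine. The Ada signal on the log2 scale was 7.76, 7.64 and 7.28 at 0 h, 7.66, 7.90 and 7.44 at 1 h, 7.54, 7.68 and 7.45 at 2 h, 7.497, 7.35 and 7.45 at 4 h, 7.54 and 7.32 at 8 h, 7.39, 7.38 and 7.03 at 12 h, and 7.28, 7.21 and 6.55 at 24 h. The 24 h arrays overlapped the controls at their upper end, and replicate 3 was the lowest array in 5 of 6 groups that have 3 arrays. Ada was lower at 24 h by -0.55 ± 0.17 (SE, adjusted p = 0.0145 by limma). Without AICAR 24 h replicate 3 the difference was -0.31 (adjusted p = 0.105), without control replicate 1 it was -0.45 (adjusted p = 0.0754), and without control replicate 2 it was -0.51 (adjusted p = 0.0504).

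Pnp encodes purine nucleoside phosphorylase, which splits inosine and guanosine into base and ribose phosphate. Its log2 signal was 10.70, 10.64 and 10.63 at 0 h, 10.68, 10.66 and 10.54 at 1 h, 10.58, 10.65 and 10.67 at 2 h, 10.59, 10.66 and 10.61 at 4 h, 10.74 and 10.71 at 8 h, 10.91, 10.83 and 10.89 at 12 h, and 10.94, 10.93 and 10.91 at 24 h. The arrays up to 4 h overlapped one another, and those at 8, 12 and 24 h lay above every control array, in that order without overlap. The difference from 0 h was 0.21 ± 0.06 (SE) at 12 h (adjusted p = 0.0102 by limma) and 0.27 ± 0.06 at 24 h (adjusted p = 0.000906), a signal 1.20-fold the control. Pnp was 0.26 higher at 12 h than at 4 h (adjusted p = 0.0024). Mice carry a close relative, Pnp2, with a probe set of its own, and whether probes of one gene bind RNA of the other was not tested. Pnp2 was 0.27 ± 0.10 (SE) higher at 24 h (adjusted p = 0.0312), so the source of the Pnp rise between these genes is uncertain.

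Hprt encodes the phosphoribosyltransferase that salvages hypoxanthine and guanine. The Hprt arrays read, in log2 signal, 11.08, 11.098 and 11.06 at 0 h, 11.098, 11.17 and 10.96 at 1 h, 11.08, 11.12 and 11.19 at 2 h, 11.04, 11.11 and 11.01 at 4 h, 10.996 and 11.01 at 8 h, 11.03, 10.98 and 11.06 at 12 h, and 11.08, 11.08 and 11.04 at 24 h. The highest and lowest arrays of the whole course came from 2 h and 1 h. The difference at 24 h was -0.01 ± 0.06 (SE, adjusted p = 0.900 by limma), with a 95% interval of -0.14 to 0.12. The test over all times gave an adjusted p of 0.701.

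Adsl encodes adenylosuccinate lyase, which acts at 2 places: it makes ZMP within the synthesis of IMP, and it makes AMP from adenylosuccinate. Its log2 signal was 9.68, 9.66 and 9.61 at 0 h, 9.69, 9.67 and 9.71 at 1 h, 9.71, 9.67 and 9.73 at 2 h, 9.66, 9.65 and 9.59 at 4 h, 9.61 and 9.52 at 8 h, 9.51, 9.60 and 9.54 at 12 h, and 8.98, 8.96 and 8.81 at 24 h. The arrays at 24 h stood below all other 17 arrays, by more than the whole spread of those. The difference from 0 h was -0.10 ± 0.06 (SE) at 12 h (adjusted p = 0.288 by limma) and -0.74 ± 0.06 at 24 h (adjusted p = 3.24e-08, 95% interval -0.86 to -0.61). Between 24 h and 12 h the difference was -0.64 (adjusted p = 8.21e-07). Unlike Adsl, Ampd2 had passed the test at 12 h as well, although the timing of the 2 genes was not compared in a test.

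**Figure D3:**
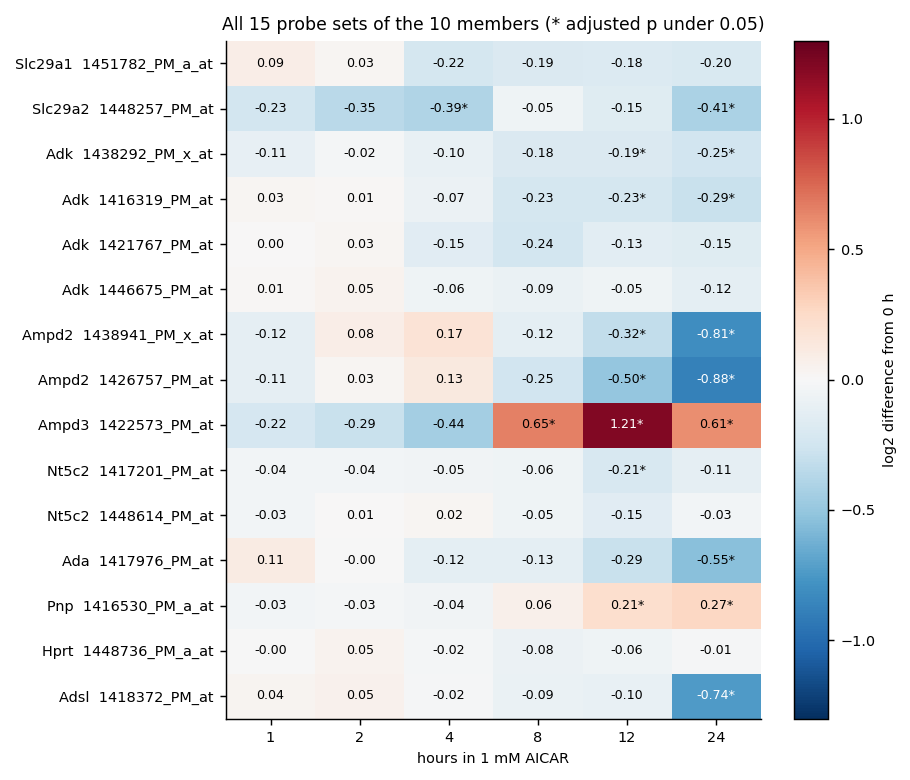
Difference from 0 h on the log2 scale (colour and printed value) for all 15 probe sets of the 10 members (rows) at 6 times in 1 mM AICAR (columns). A star marks an adjusted p under 0.05 in the limma fit over probe sets. Starred differences are at 4 h for Slc29a2, at 8 h for Ampd3, and otherwise at 12 and 24 h.

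For each member that passed the test over all times, the 3 genes with the most similar 6 differences from 0 h were found by root mean square difference on the log2 scale. Those nearest Ampd2 were Pes1 (0.07), Xpo5 (0.07) and Acaca (0.07), where the root mean square of the Ampd2 differences themselves was 0.37. Those nearest Ampd3 were Dixdc1 (0.16), Ppm1e (0.17) and Serpinb9b (0.19), against 0.66 for Ampd3 itself. Those nearest Adsl were Ppid (0.05), Ebna1bp2 (0.05) and Prep (0.06), against 0.31 for Adsl itself. Nearest were Arpc4, Ttc37 and Tada2a to Ada, H2bc21, Nrbp2 and Chmp1a to Pnp, Cycs, Exoc5 and Slc25a5 to Adk, and Hpdl, Zfp324 and Dyrk2 to Slc29a2. These are the 3 nearest in each case among the 12944 genes tested, leaving out members and genes with Riken, Gm or LOC names. All 6 differences share the same control arrays. Cycs, Slc25a5, H2bc21 and Dyrk2 did not themselves pass the limma test over all times (adjusted p = 0.0824, 0.189, 0.159 and 0.169).

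Of the other genes of purine handling, 49 were listed, 35 had a probe set and 31 were tested. At 24 h, 5 of 31 were higher and 10 lower, where 25.8% of all genes were higher and 14.6% lower. At 12 h, 6 were higher and 5 lower, where 14.8% of all genes were higher and 8.88% lower. Their median difference at 24 h was -0.07, beside 0.01 over all genes. Of 4 genes of IMP synthesis tested, 3 were lower at 24 h (14.6% of all genes were): Ppat, which starts the pathway (-0.56), Pfas (-0.39) and Gart (-0.33). Gart had been higher at 12 h (0.38, adjusted p = 0.00034 by limma), and Paics did not pass at either time. Atic, whose product acts directly on ZMP, has no single-symbol probe set.

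Among 9 other AMP and IMP enzymes, Ak5, an adenylate kinase (-0.89), Adss, which feeds adenylosuccinate to the lyase encoded by Adsl (-0.51), and Gmps, which makes GMP (-0.24), were lower at 24 h and Ak3 was higher (0.36). Among 11 other genes listed under salvage and breakdown, 4 were lower and 3 higher at 24 h. Of all genes, 14.6% were lower and 25.8% higher, so that the share higher was near that of all genes. The lower ones were Mtap, which releases adenine from methylthioadenosine (-0.87), Prps1, which makes the ribose donor of purine synthesis (-0.51), Aprt, which salvages adenine (-0.49), and Ahcyl1 (-0.40). The higher ones were Ahcyl2 (0.66), the deaminase-like gene Adal (0.62) and the deoxynucleoside kinase gene Dck (0.27). Ahcyl1 and Ahcyl2 were listed for their likeness to the adenosylhomocysteinase gene, and their products are not established enzymes of this route. Mtap was lower at every time from 4 h, by -0.40 at 4 h and -0.70 at 12 h.

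Of 5 other genes listed as nucleotidases, Entpd1 alone was higher at 24 h (0.18, adjusted p = 0.0391 by limma), where 25.8% of all genes were higher. Its product takes ATP and ADP to AMP and does not itself release nucleosides. Nt5c alone was higher at 12 h (0.38, adjusted p = 0.00163 by limma), where 14.8% of all genes were. A count of 1 of 5 is near these shares. Neither of the 2 other nucleoside transporters tested, Slc29a3 and Slc28a3, passed at any time. Of the 4 adenosine receptor genes, Adora3 was the one with a single-symbol probe set, and it was below the filter.

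**Figure D4:**
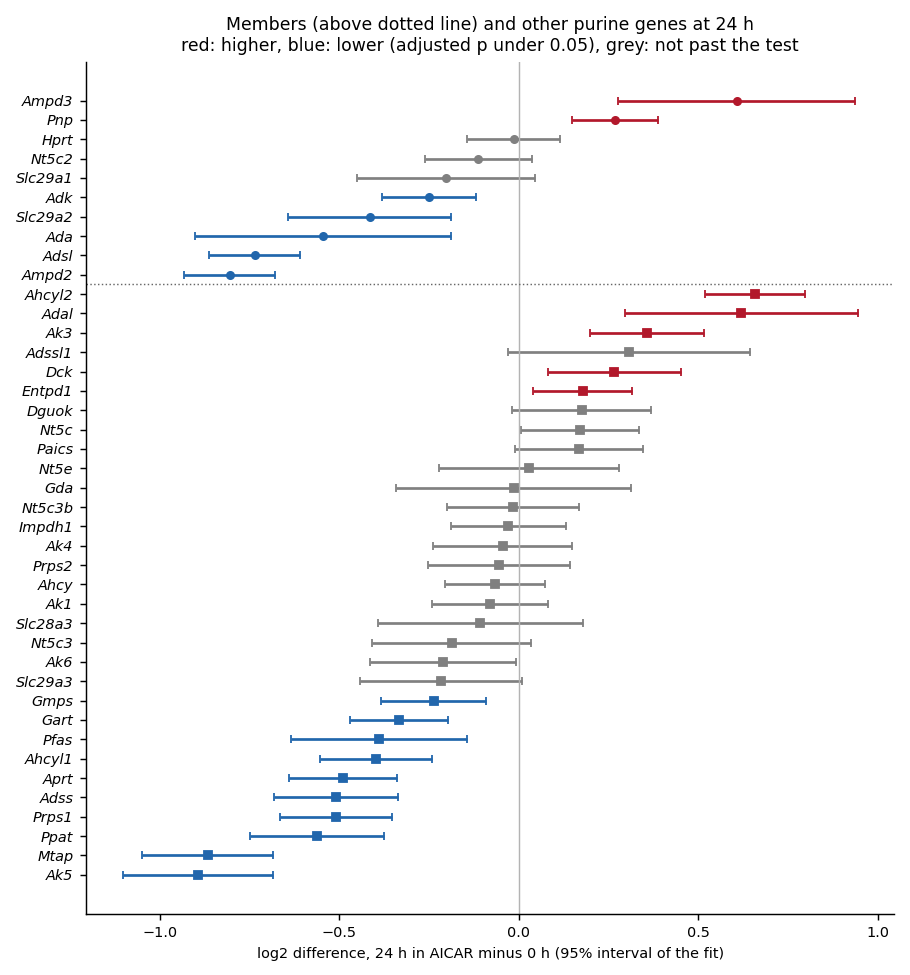
Difference at 24 h in AICAR minus 0 h on the log2 scale (horizontal axis) for the 10 members (circles, above the dotted line) and the 31 other purine genes tested (squares, below it). Bars are 95% intervals of the limma fit, red marks genes higher and blue genes lower at an adjusted p under 0.05, and grey marks genes that did not pass. The members run from Ampd3 at 0.61 to Ampd2 at -0.81, and the other genes from Ahcyl2 at 0.66 to Ak5 at -0.89.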

How the data were processed

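Total RNA of the 20 samples was labelled and hybridised to 1-colour arrays, per the labels' protocols. The authors deposited a table of 45141 probe sets, whose values were taken as log2 signal from their range. For background correction, summarisation and normalization, the method was not given in the sources used here. Medians of the arrays lay within 0.159 of one another, and the log2 values were used as deposited. Control probe sets (104) and those with several symbols (551) or no listed symbol (15692, controls included) were not named. Symbols were updated by gene identifier for 28689 probe sets.

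The probe set with the highest mean stood for a gene, and 4153 genes below the filter were left out. Differences of group means were tested with limma 3.58.1 in R 4.3.3 (lmFit, eBayes), with all 7 groups in one fit and 13 residual degrees of freedom. Tests were two-sided, and p-values were adjusted by Benjamini-Hochberg across the 12944 genes in each comparison. Another fit ran over 20460 probe sets. The number of arrays limits the precision. Genes named were all members, up to 4 genes past the threshold per purine list and time, the 3 nearest patterns of a member, and marker genes. Purine genes past no threshold (Paics, Slc29a3, Slc28a3) or not tested (Atic, Adora3) were named outside this rule, to account for their lists. Also outside it, Pnp2 was named as the relative of Pnp, and Prkaa1 and Prkaa2 as the genes knocked out. Members and lists were chosen with earlier results of these data known. Alternatives covered normalization, filter, probe set choice, variance model, array weights, replicate block, threshold and each array left out. Plots were made in matplotlib 3.10.9 under Python 3.11.15.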

Additional observations from a re-analysis of the deposited data

Results flagged for a closer look

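Steps between AICAR times at which a member's difference from 0 h itself changed past the threshold are listed here. The 2 times share the control arrays, which cancel in each step, so the step is the difference between the later and the earlier group.

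Ampd3 was 1.65 higher on the log2 scale at 12 h than at 4 h (adjusted p = 1.21e-06 by limma) and differed by -0.60 at 24 h from 12 h (adjusted p = 0.0109). Ampd2 differed by -0.50 between 12 h and 4 h (adjusted p = 1.03e-05 by limma) and by -0.48 between 24 h and 12 h (adjusted p = 2.06e-05). Pnp was 0.26 higher at 12 h than at 4 h (adjusted p = 0.0024 by limma). Adsl differed by -0.64 between 24 h and 12 h (adjusted p = 8.21e-07 by limma). In all of these steps but the later one of Ampd3, the arrays of the 2 times did not overlap and the call held with any of the 6 arrays left out. For the later step of Ampd3, the 24 h and 12 h arrays also did not overlap, and the call was lost without AICAR 12 h replicate 2 or AICAR 24 h replicate 3.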

How the results depend on the processing

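Of the 20 calls of a member in a comparison, 397 repeats under other settings gave 355 calls again, 42 losses and 0 changes of direction. Ampd2, Ampd3 and Pnp at 12 h, and Ampd2, Ampd3, Pnp, Adsl, Adk and Slc29a2 at 24 h, passed with any array left out. At 4 h (1 as reported) it was 3 with quantile normalization, with the replicate block and with the array interquartile range as a covariate, 2 with trended and robust variance, 6 with array weights, whose estimation stopped before it converged, and 0 at an adjusted p under 0.01. At 2 h (0 as reported) it was 1 with array weights. At 8 h (1 as reported) it was 2 with quantile normalization or array weights, and 0 with arrays centred on their median or at an adjusted p under 0.01. At 12 h (5 as reported) it was 3 with arrays centred on their median or with the mean of all probe sets, and 2 when only the groups compared were fitted or at an adjusted p under 0.01. The test over all times called 4 at an adjusted p under 0.01 (7 as reported). With 1 array left out, the counts ranged from 0 to 1 at 4 h, 0 to 1 at 8 h, 3 to 4 at 12 h, 6 to 7 at 24 h and 5 to 7 over all times. Calls near the threshold depend on these choices, and the cause was not tested.

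Same-numbered arrays of different groups correlated between -0.455 and 0.790 in their deviations from group means (median 0.325, 39 of 57 pairs over 0.1). Differently numbered arrays had a median of -0.166 (36 of 114 pairs over 0.1), and 12 of 20 arrays correlated best with their own number. Deviations from a group mean cancel out within the group, so positive same-number correlations bring negative ones between other numbers. The contrast between the medians is therefore not a separate result. The same-number correlations are a hint from the data that numbers may pair. However, not every same-number pair exceeded 0.1 and the labels give no pairing, so the fit reported has no block. The interquartile range of an array was 2.77 to 3.24. It was narrowest for replicate 3 at 0, 1, 2, 12 and 24 h, and for replicate 2 at 4 and 8 h. Whether array spread or pairing lies behind the correlations was not tested. With the replicate block the count at 4 h was 3, adding Ampd2 (0.17, adjusted p = 0.0487 by limma) and Ampd3 (-0.44, adjusted p = 0.0146). The number of all genes called at 1 h, 2 h, 4 h and 8 h was 62, 190, 1564 and 1336 as reported, and lay between 34 and 421, 71 and 1338, 751 and 7476, and 551 and 2418 under the settings that kept all arrays. With 1 array left out it was as low as 18 (without AICAR 1 h replicate 3), 78 (without control replicate 2 or AICAR 2 h replicate 1), 904 (without control replicate 1) and 250 (without AICAR 8 h replicate 1). At 12 and 24 h it was 3068 and 5229, lay between 1914 and 4645, and 4057 and 7025, and with 1 array left out was lowest at 2129 and 4482. Background limits what can be said of Slc29a2.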
